A study of Mus with 21 samples.

Results

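Tissue acid is read by a small set of membrane proteins, and 6 of their genes were followed through wounds filled with gels of different pH. They were chosen by name as proton-sensing receptors and acid-sensing channels: the receptor genes Gpr4, Gpr65 and Gpr132 and the channel genes Asic1, Asic3 and Trpv1. All 6 were present among the 18806 genes in the count files, and all 6 passed the filter on low counts, which left 15811 genes for testing. None of the 6 passed the thresholds in any comparison between gel pH values, between growth factors, or between hydrogels and control, whether by edgeR, DESeq2 or limma. The receptors had at least 143 counts in each library, whereas the channels were near the lower end of what these libraries could count.

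Gpr4, Gpr65 and Gpr132 are G protein-coupled receptors, and protons are sensed by extracellular histidines of this receptor family. Gpr4 is best known from endothelial cells, where it acts through Gs and cyclic AMP. Gpr65 is carried by lymphoid and myeloid cells and also raises cyclic AMP, and Gpr132 is a receptor of macrophages and lymphocytes that responds to oxidised lipids and lactate as well as weakly to protons. Asic1 and Asic3 encode subunits of proton-gated sodium channels, and Trpv1 encodes the cation channel opened by capsaicin, heat and acid. These channels are studied mostly in sensory neurons, whose cell bodies lie in ganglia outside the skin.

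The tissue was dorsal skin of female wild-type (WT) C57BL/6 mice aged 8 weeks, taken with the wound margin on Day 4 after full-thickness punch wounds of 8 mm. In 6 groups the wound was filled with a scaffold of GelMA (gelatin methacryloyl, a light-cured gelatin) of pH 6.4, 7.4 or 8.4 carrying either aFGF (FGF1) or bFGF (FGF2), and these groups are named by both, as in 6.4/aFGF. The control wounds received no hydrogel, and all 7 groups were wounded alike, with 3 libraries each and 21 in all. No group had a gel without growth factor, so that the gel and its load cannot be told apart in the comparison with control. Each mouse carried a wound on both sides, and the labels call the libraries of a group biological replicates without tying them to mice, so the p-values measure the spread between these samples.

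Total counts were 34362558 to 37817833 per library, and 1 count was worth 0.0252 to 0.0311 CPM (counts per 1000000, with library sizes scaled by TMM). In 3 libraries (7.4/aFGF replicate 3, 8.4/aFGF replicate 2 and 8.4/bFGF replicate 2) at least 24 genes were high in that library alone, against at most 2 in any of the others. The growth factor estimates of the genes named are given with and without these 3. Skin was present as labelled, with the 12 keratinocyte genes summing to 3259 to 8507 CPM. The whole-wound tissue held abundant macrophage genes, with Csf1r at a median of 697.5 CPM, and endothelial genes, with Pecam1 at a median of 245.6 CPM. Sensory neuron genes were scarce, since all 12 of the list had a median under 1 CPM. In bulk tissue, fewer cells of a type and less RNA per cell cannot be told apart.

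Levels were first set side by side per gene length, as FPKM. Gpr65 had a median of 10.1 FPKM over the 21 libraries (range 5.23 to 20.0) and Gpr132 a median of 9.49 FPKM (3.34 to 22.7). These neighbours did not differ beyond their spread, since Gpr65 was the higher of the pair in 12 of 21 libraries. Gpr4 followed at 2.71 FPKM (1.31 to 3.58). Gpr132 exceeded Gpr4 in all 21 libraries, and the lowest library of Gpr65 lay above the highest of Gpr4. The ratio of the medians of Gpr65 and Gpr4 was 3.71.

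The channels formed a lower tier. Trpv1 had a median of 0.204 FPKM (0.0148 to 1.58), Asic1 of 0.127 FPKM (0.0106 to 0.254) and Asic3 of 0.0649 FPKM (0 to 0.235). Gpr4 exceeded Trpv1 in each of the 21 libraries. Among the channels the order was loose, with Trpv1 above Asic1 in 14 of 21 libraries and Asic1 above Asic3 in 13 of 21. In counts, Asic1 had 2 to 47 per library, Asic3 0 to 17 and Trpv1 2 to 206, so sampling of few molecules adds to their spread.

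**Figure D1:**
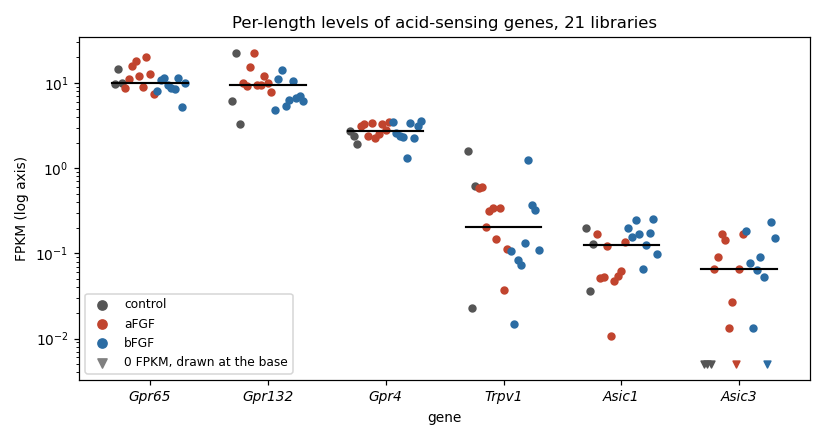
FPKM (log axis) of the 6 genes in each of the 21 libraries, coloured by control, aFGF and bFGF, with the median as a bar and libraries at 0 drawn as triangles at the base. The receptors sit between 1.31 and 22.7 FPKM, and the channels at 1.58 FPKM or less, with Asic3 at 0 in 5 libraries.

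The first comparison asked whether wounds with a hydrogel differed from control wounds. Of all genes tested, 0.00632% passed edgeR's thresholds (an adjusted p below 0.05 together with a log2 change larger than 0.58 either way), a single gene, Hmga2, and 0 of the 6 acid sensors did. At an unadjusted p under 0.05, 16.7% of all genes passed, and 1 of the 6, Asic3, did. It was at 0 counts in control and was tested only through its hydrogel counts, so this is a description. Control replicate 2 weighed heavily here: without it 1189 genes were called, though still 0 of the 6, whose adjusted p was then at least 0.0709 (edgeR, Trpv1).

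Asic3 was read 0 times in all 3 control libraries, out of 108368760 counts. In 6.4/aFGF it had 5, 7 and 13 counts, in 7.4/aFGF 11, 1 and 2, and in 8.4/aFGF 0, 5 and 13. In 6.4/bFGF it had 13, 6 and 1 counts, in 7.4/bFGF 5, 7 and 4, and in 8.4/bFGF 0, 17 and 11. Thus 16 of 18 hydrogel libraries held at least 1 count, and the libraries at 0 (replicate 1 of each pH 8.4 group) overlapped with control. Against the limit that a count of 0 allows over the pooled control group (3 counts, 0.0275 CPM), the pooled hydrogel level of 0.184 CPM was 6.69-fold that limit. The limit covers counting error only, not the spread between libraries. With control at 0, Asic3 passed the filter on low counts through hydrogel libraries alone, so its difference from control is given as a description. The edgeR p was 0.00803 before adjustment and 0.183 after it, so the gene was not called. An exact permutation test over libraries gave an unadjusted two-sided p of 0.00752, which reflects only where the 5 libraries at 0 fell. Neither p is taken as support, since the gene was tested only through its hydrogel counts. The exact test was 1 of 30 such tests, chosen once values were known and not adjusted, and no call was made from any of them. The adjusted p lay between 0.109 and 0.591 over all alternatives, and the gene was called in none of them.

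Control and hydrogel groups of 3 were also set against each other one by one. The 3 control libraries lay below all 3 libraries of 6.4/aFGF for Asic3, where 14.4% of all genes were separated in either direction. The same held for 7.4/aFGF (background 16.1%), 6.4/bFGF (15.7%) and 7.4/bFGF (14.7%). In the last pair Gpr65 was separated as well, with control higher. For 8.4/aFGF, with a background of 16.6%, Gpr4 was the gene that did not overlap with control, and for 8.4/bFGF, with a background of 15%, none of the 6 was separated. In RefSeq models Asic3 overlaps Cdk5, a kinase gene of nerve and other cells, and whether the counting used strand is not given in the sources used here. Cdk5 was at 21.6 ± 1.50 CPM (SD, n = 3) in control and 19.3 ± 2.47 CPM (SD, n = 18) in hydrogels, with a log2 fold change of -0.17 (edgeR adjusted p = 0.377). Its part in the Asic3 counts was not tested. Gpr132 overlaps another RefSeq model, Gm30461, whose part in the Gpr132 counts was not tested either.

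Trpv1 had the widest spread of the 6. The control libraries stood at 5.43, 0.0859 and 2.12 CPM, which spans nearly the whole range of the series. The 18 hydrogel libraries ran from 0.0549 to 4.86 CPM (median 0.630). The fitted difference of hydrogels from control was -1.55 on the log2 scale (95% interval -3.20 to 0.10, edgeR adjusted p = 0.323). It became -0.35 without control replicate 1 and -2.12 without control replicate 2 (edgeR adjusted p = 0.0709). The groups overlapped, since the second control library was below all but 1 of the hydrogel libraries.

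The other 4 members gave smaller differences between hydrogels and control. Gpr4 stood at 7.51, 7.35 and 5.26 CPM in control and at a median of 8.15 CPM in hydrogels (range 3.66 to 10.5), a log2 fold change of 0.28 (95% interval -0.22 to 0.78, edgeR adjusted p = 0.559). Gpr65 differed by -0.05 (-0.68 to 0.57) and Asic1 by -0.08 (-1.26 to 1.10). Gpr132 differed by -0.17 (-1.12 to 0.78), a value that 1 control library decided. Control replicate 2 was at 65.1 CPM of Gpr132 where the other controls were at 16.1 and 8.79 CPM, and without it the difference was 1.10 (edgeR adjusted p = 0.113).

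**Figure D2:**
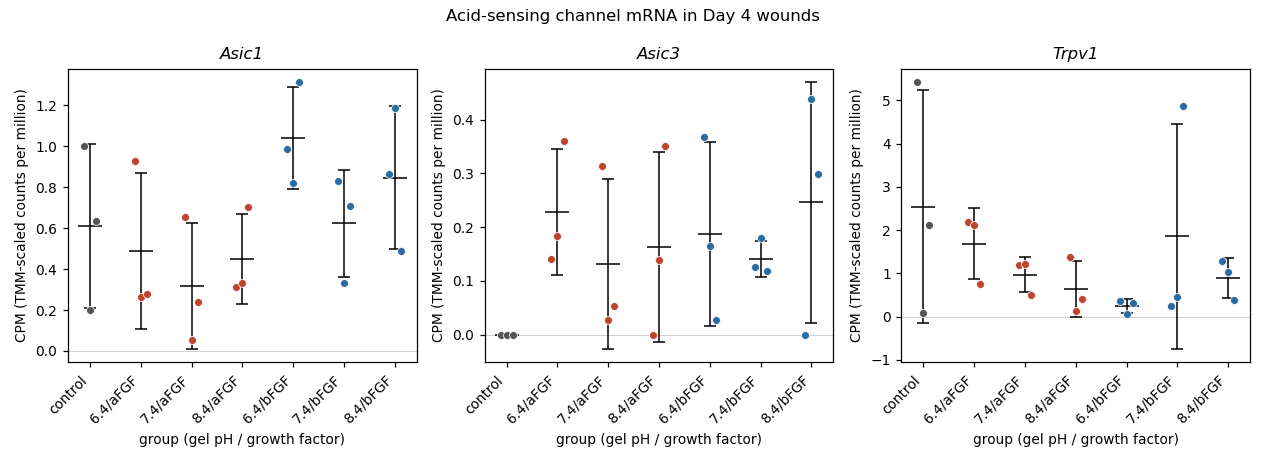
CPM of Asic1, Asic3 and Trpv1 in each library (points) of the 7 groups, with the group mean (bar) and SD (whiskers, n = 3); grey is control, red aFGF and blue bFGF. Asic3 was at 0 CPM in the 3 control libraries and reached 0.438 CPM in 8.4/bFGF, and Trpv1 was highest in control replicate 1 at 5.43 CPM and in 7.4/bFGF replicate 3 at 4.86 CPM.

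The second set of comparisons asked whether acid-sensing genes followed the pH of the gel, with both growth factors averaged. Between pH 6.4 and 7.4, 0% of all genes passed edgeR's thresholds and 10.2% had an unadjusted p under 0.05. Between pH 8.4 and 7.4 these shares were 0% and 4.96%, and between pH 6.4 and 8.4 they were 0% and 4.21%. Of the 6 members, 0 passed either bar in any of the 3 comparisons.

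Among the receptors, the pH groups lay close to each other. Gpr4 had medians of 8.57, 6.78 and 9.09 CPM at pH 6.4, 7.4 and 8.4 (n = 6 each), with ranges of 7.02 to 9.72, 3.66 to 10.5 and 6.28 to 10.5 CPM. Its log2 difference of pH 6.4 from pH 7.4 was 0.19 (95% interval -0.26 to 0.65), which leaves out a doubling in either direction. Gpr65 had means of 24.1 ± 6.14, 23.7 ± 8.63 and 24.4 ± 13.0 CPM (SD, n = 6 each) at the 3 pH values in the same order. The interval of its pH 6.4 to 7.4 difference was -0.54 to 0.62. Gpr132 had means of 30.2 ± 10.9, 29.7 ± 18.5 and 23.0 ± 8.20 CPM (SD, n = 6 each). Its difference between pH 6.4 and pH 8.4 was 0.44 (-0.45 to 1.33, edgeR adjusted p = 1.00), with 5 of 6 libraries at pH 6.4 above the median at pH 8.4.

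The channels gave wider intervals. Asic1 was at 0.766 ± 0.418 CPM at pH 6.4, 0.471 ± 0.305 at pH 7.4 and 0.648 ± 0.340 at pH 8.4 (SD, n = 6 each), and its pH 6.4 to 7.4 difference was 0.68 (-0.44 to 1.80, edgeR adjusted p = 0.700). Asic3 differed by 0.59 (-1.28 to 2.46) in that comparison. Trpv1 differed by -1.06 (-2.84 to 0.73, edgeR adjusted p = 0.705), and this turned to 0.12 without 7.4/bFGF replicate 3. Changes of these sizes were not detectable at the channels' depth and spread.

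The study set 6.4/aFGF beside 7.4/aFGF in particular. There 0% of all genes were called and 7.25% had an unadjusted p under 0.05, and 0 of the 6 members passed either bar. The fitted log2 differences were 0.12 for Gpr4, -0.13 for Gpr65, -0.26 for Gpr132, 0.62 for Asic1, 0.79 for Asic3 and 0.79 for Trpv1. The 95% interval of each of them included 0.

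Whether the pH 6.4 to 8.4 difference itself depended on the growth factor was tested as an interaction. No gene was called (0%), and 6.68% of all genes had an unadjusted p under 0.05, none of them a member. The largest estimate among the 6 was that of Trpv1, 3.29 on the log2 scale (95% interval -0.36 to 6.93, edgeR adjusted p = 0.731). Trpv1 was at 2.20, 2.12 and 0.749 CPM in 6.4/aFGF and at 1.37, 0.138 and 0.405 CPM in 8.4/aFGF. With bFGF it was at 0.367, 0.0549 and 0.308 CPM at pH 6.4 and at 1.29, 1.03 and 0.381 CPM at pH 8.4. At pH 6.4 the aFGF libraries all lay above the bFGF libraries for Trpv1, a separation that 14.5% of all genes showed in one direction or the other.

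**Figure D3:**
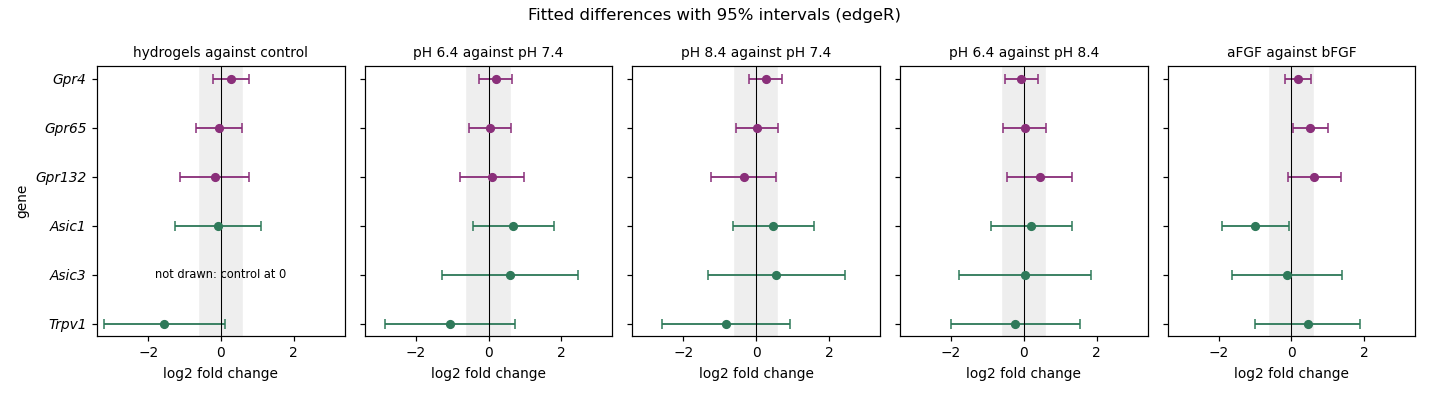
Fitted log2 fold changes (points) with 95% intervals (bars) of the 6 genes in 5 comparisons, receptors in purple and channels in green, with the band within 0.58 of 0 shaded. All intervals include 0 except those of Gpr65 (0.04 to 0.99) and Asic1 (-1.91 to -0.07) between aFGF and bFGF; the value of Asic3 against control is left out because control was at 0.

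By edgeR adjusted p, the growth factor was where the acid sensors came nearest to the thresholds. The smallest unadjusted edgeR p of a member was that of Asic3 against control, 0.00803. It is not taken as support, since control was at 0 and Asic3 passed the filter through hydrogel libraries alone. Between the 9 aFGF and the 9 bFGF libraries, 3.2% of all genes were called by edgeR, and 28% had an unadjusted p under 0.05. Of the 6 members 0 were called, and 2, Gpr65 and Asic1, had an unadjusted p under 0.05. With 28% of all genes past that bar, 2 of 6 is near the background.

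All 3 receptors had positive estimates in aFGF. Gpr65 was at 19.5, 23.8 and 34.8 CPM in 6.4/aFGF, 40.5, 25.8 and 19.0 CPM in 7.4/aFGF, and 47.7, 28.1 and 15.7 CPM in 8.4/aFGF. With bFGF it was at 17.0, 24.0 and 25.2 CPM at pH 6.4, 19.4, 18.1 and 19.7 CPM at pH 7.4, and 24.1, 10.1 and 20.7 CPM at pH 8.4. Libraries above the highest bFGF value, 25.2 CPM, were found in each aFGF group, but the lower aFGF libraries lay among the bFGF ones. Its fitted log2 difference was 0.52 with a standard error of 0.22. The edgeR p was 0.0329 before adjustment and 0.140 after it, and the adjusted p lay between 0.0544 and 0.303 over the alternatives. An exact permutation test over libraries gave an unadjusted p of 0.0502.

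Gpr132 had a like course. It was at 29.1, 25.3 and 43.2 CPM in 6.4/aFGF, 65.2, 26.0 and 25.4 CPM in 7.4/aFGF, and 37.3, 28.0 and 21.4 CPM in 8.4/aFGF. With bFGF the values were 12.8, 31.3 and 39.8 CPM at pH 6.4, 14.1, 16.6 and 31.1 CPM at pH 7.4, and 17.7, 17.4 and 16.3 CPM at pH 8.4. All 9 aFGF libraries lay above the bFGF median of 17.4 CPM, while 3 bFGF libraries, at 31.1 CPM or more, reached into the aFGF range. The fitted log2 difference was 0.63 with a standard error of 0.34 (edgeR p = 0.0820, adjusted p = 0.241), and an exact permutation test over libraries gave an unadjusted p of 0.0246. At pH 8.4 the 3 bFGF libraries lay below the 3 aFGF libraries for Gpr132, which was so in one direction or the other for 26.9% of all genes, and at pH 7.4 no member was separated (background 20%).

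Gpr4 was the least moved of the receptors, at 8.71 ± 1.52 CPM with aFGF and 7.69 ± 2.17 CPM with bFGF (SD, n = 9 each). Its log2 fold change was 0.18 (95% interval -0.19 to 0.55, edgeR adjusted p = 0.533), and 0.24 without the 3 libraries that stood apart.

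Asic1 was lower with aFGF in its estimate. Its 9 aFGF libraries held 33, 10, 10, 23, 2, 9, 10, 12 and 26 counts from pH 6.4 to 8.4, and its 9 bFGF libraries 35, 30, 47, 33, 13, 24, 33, 46 and 18. In CPM the aFGF libraries had a median of 0.311 (0.0550 to 0.930) and the bFGF libraries one of 0.832 (0.332 to 1.31). The ranges overlapped, but only 1 aFGF library was above the bFGF median. The fitted log2 difference was -0.99 with a standard error of 0.43 (edgeR p = 0.0335, adjusted p = 0.141), and the exact permutation test over libraries gave an unadjusted p of 0.00905. Like those of Gpr65 and Gpr132, this exact test was 1 of the 30 unadjusted ones chosen once values were known. For Gpr4, Trpv1 and Asic3 the exact test between growth factors gave p = 0.246, 0.336 and 0.828. Leaving out 1 library at a time moved the Asic1 estimate between -1.35 and -0.82, with an edgeR adjusted p of 0.0667 or more. Without the 3 libraries that stood apart, the growth factor estimates were 0.51 for Gpr65, 0.72 for Gpr132 and -0.77 for Asic1 (edgeR adjusted p = 0.175, 0.298 and 0.372). Trpv1 (0.45, 95% interval -0.99 to 1.89) and Asic3 (-0.13, -1.65 to 1.39) had intervals wide on both sides of 0, and without the same 3 libraries they stood at 0.75 and 0.27.

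**Figure D4:**
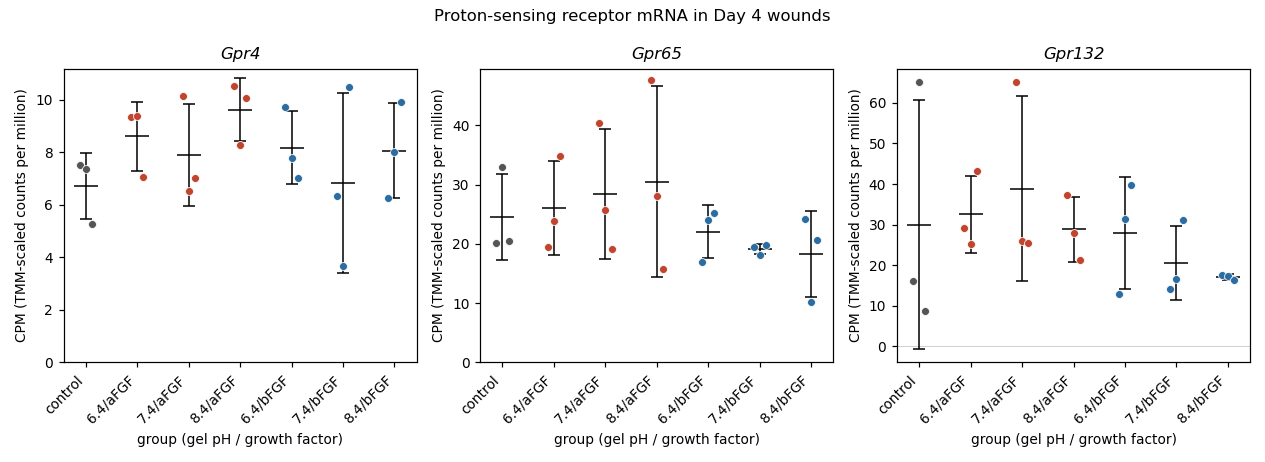
CPM of Gpr4, Gpr65 and Gpr132 in each library (points) of the 7 groups, with the group mean (bar) and SD (whiskers, n = 3); grey is control, red aFGF and blue bFGF. For Gpr132 the 8.4/bFGF libraries cluster at 16.3 to 17.7 CPM, below the 9 aFGF libraries, and control replicate 2 and 7.4/aFGF replicate 1 stand at 65.1 and 65.2 CPM.

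A test for any difference among the 7 groups called 0.114% of all genes, with 19.3% at an unadjusted p under 0.05, and none of the 6 members passed either bar. The order of group means was therefore a description. Gpr65 ran from 30.5 CPM in 8.4/aFGF to 18.3 CPM in 8.4/bFGF, with all 3 aFGF groups above all 3 bFGF groups and control between them. Gpr132 ran from 38.9 CPM in 7.4/aFGF to 17.1 CPM in 8.4/bFGF. Gpr4 ran from 9.63 CPM in 8.4/aFGF to 6.71 CPM in control, Asic1 from 1.04 CPM in 6.4/bFGF to 0.318 CPM in 7.4/aFGF, and Trpv1 from 2.55 CPM in control to 0.243 CPM in 6.4/bFGF. For each gene, 0 of the 6 pairs of neighbours in its order differed by more than the larger of their SDs.

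The remaining acid-sensing genes of the list were 13, of which 8 could be tested. They include the other ASIC subunits, the proton-activated chloride channel Pacc1, otopetrin proton channels, acid-sensitive potassium channels, Trpv4, Trpa1 and Tmem175. In each of the comparisons 0 of the 8 were called, where at most 3.2% of all genes were (aFGF against bFGF). Pacc1 came nearest between the growth factors, at 9.01 ± 1.24 CPM with aFGF and 11.9 ± 1.62 CPM with bFGF (SD, n = 9 each). Its log2 difference of -0.40 had an edgeR adjusted p of 0.0294 but was inside the fold threshold. Without the 3 libraries that stood apart, one of which (8.4/bFGF replicate 2) held the highest Pacc1, it was -0.36 with an edgeR adjusted p of 0.0728. Kcnk3, which encodes an acid-inhibited potassium channel, differed by -1.19 (edgeR adjusted p = 0.143), and Asic2 by -1.85 (edgeR adjusted p = 0.176). Asic2 reached 1.44 CPM in 8.4/bFGF replicate 2, against a median of 0.110 CPM, and without the 3 libraries the estimates were -0.78 for Kcnk3 and -2.03 for Asic2 (edgeR adjusted p = 0.440 and 0.263). Against control, Kcnk3 had an estimate of -1.66 (edgeR adjusted p = 0.193) with controls at 0.916 to 19.4 CPM. Otop3, an otopetrin, had 1.66 for pH 8.4 against 7.4 (unadjusted p = 0.00320, edgeR adjusted p = 0.915). The median difference of the 8 genes was -0.25 for aFGF against bFGF and -0.30 for hydrogels against control, beside medians over all genes of -0.0016 and -0.02.

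Downstream of the receptors, 34 of 35 genes of G proteins, adenylyl cyclases, protein kinase A, phosphodiesterases and cytoskeletal kinases were tested. Only the growth factor comparison called any of them, 1 gene of the 34, where 3.2% of all genes were called, so that the share is near the background. Crem, a transcriptional regulator induced by cyclic AMP, was higher with aFGF by 1.66 on the log2 scale (standard error 0.38, edgeR adjusted p = 0.0146). Its 9 aFGF libraries ran from 41.1 to 144.4 CPM (median 84.9) and its 9 bFGF libraries from 13.6 to 52.7 CPM (median 22.3), with some overlap. It was called under all 31 alternatives run for it, with an estimate of 1.84 without the 3 libraries that stood apart. The cytoskeletal kinase genes Rock2 (0.44, edgeR adjusted p = 0.0109) and Rock1 (0.40, edgeR adjusted p = 0.0204) passed on p but not on fold, as did the cyclic AMP phosphodiesterase gene Pde4d (0.54, edgeR adjusted p = 0.0212). Without the 3 libraries their estimates were 0.45, 0.43 and 0.51, and Pde4d no longer passed on p (edgeR adjusted p = 0.0732). The list as a whole was balanced, with 16 estimates above and 18 below 0 and a median of -0.03.

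Against control, the smallest p of this list belonged to Pde4d (0.80, edgeR adjusted p = 0.107), Rock2 (0.41, edgeR adjusted p = 0.164) and Gnaq (0.22, edgeR adjusted p = 0.191). There 0 were called, beside 0.00632% of all genes. In the 3 pH comparisons 0 of the 34 had an unadjusted edgeR p under 0.05. The shares of all genes were 10.2% (pH 6.4 against 7.4), 4.96% (8.4 against 7.4) and 4.21% (6.4 against 8.4).

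Since the tissue was a mixture, each member was set beside marker genes of 9 cell types over the 21 libraries, 54 pairs in all. In 6 pairs Pearson's r passed an adjusted p of 0.05 (100000-resample permutation test, Benjamini-Hochberg over the 54). The firmest was Gpr132 with the macrophage and monocyte list, at r = 0.81 and a Spearman correlation of 0.81 (permutation p adjusted to 0.000540 and 0.00108). It was 0.80 without the 2 libraries farthest from the list's median, 0.87 with group means removed and 0.85 without the 3 libraries that stood apart. Gpr65 with the same list had r = 0.80 and a Spearman correlation of 0.65 (permutation p adjusted to 0.00108 and 0.0454). It was 0.68 without the 2 farthest libraries, 0.81 within groups and 0.76 without the 3 that stood apart, and each stayed past the threshold.

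The same lists were read in the growth factor comparison, where edgeR gave 28% of all genes an unadjusted p under 0.05 and called 3.2%. The 12 macrophage and monocyte genes all had estimates above 0 with aFGF (median 0.25, beside -0.0016 for all genes). Of these genes 3 had an unadjusted p under 0.05, and 1 was called higher. The summed level of the list ran from 5020 to 8485 CPM over the aFGF libraries and from 3705 to 5896 CPM over the bFGF libraries. Of the T and NK cell list, 12 of 13 genes had estimates above 0 with aFGF (median 0.41), with 1 at an unadjusted p under 0.05. Its summed level had medians of 70.1, 77.6 and 50.9 CPM in the aFGF groups from pH 6.4 to 8.4 and of 62.9, 65.2 and 64.2 CPM in the bFGF groups, with the highest library, at 321.9 CPM, in 7.4/aFGF. Of the fibroblast list, 8 of 10 genes had estimates below 0 with aFGF (median -0.26), with 4 at an unadjusted p under 0.05 and 1 called lower. Its summed level ran from 33404 to 52477 CPM with aFGF and from 39950 to 72535 CPM with bFGF. Estimates were above 0 for 10 of 12 genes of the keratinocyte and of the Schwann cell lists, and below 0 for 10 of 12 of the endothelial list. The part of these lists in the Gpr65 and Gpr132 values was not tested.

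For Gpr4, r with the endothelial list was 0.66 (Spearman correlation 0.61, permutation p adjusted to 0.0135 and 0.0815). It fell below the threshold without the 2 libraries farthest from the list's median (r = 0.57, permutation p adjusted to 0.151), so the relation rests in part on those libraries. With group means removed r was 0.72, and without the 3 libraries that stood apart 0.68 (permutation p adjusted to 0.0659 and 0.0306). With the skeletal muscle list Gpr4 had r = -0.60 (Spearman correlation -0.50, permutation p adjusted to 0.0390 and 0.136), and without the farthest 2 it was -0.57, with an adjusted permutation p of 0.151. The last 2 pairs were Gpr132 with the neutrophil list (r = 0.60, Spearman correlation 0.54) and with the T and NK cell list (r = 0.58, Spearman correlation 0.32). Both rested on the 2 farthest libraries, without which r was 0.39 and 0.11. No pair of Asic1, Asic3 or Trpv1 passed the threshold, sensory neuron and Schwann cell lists included.

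**Figure D5:**
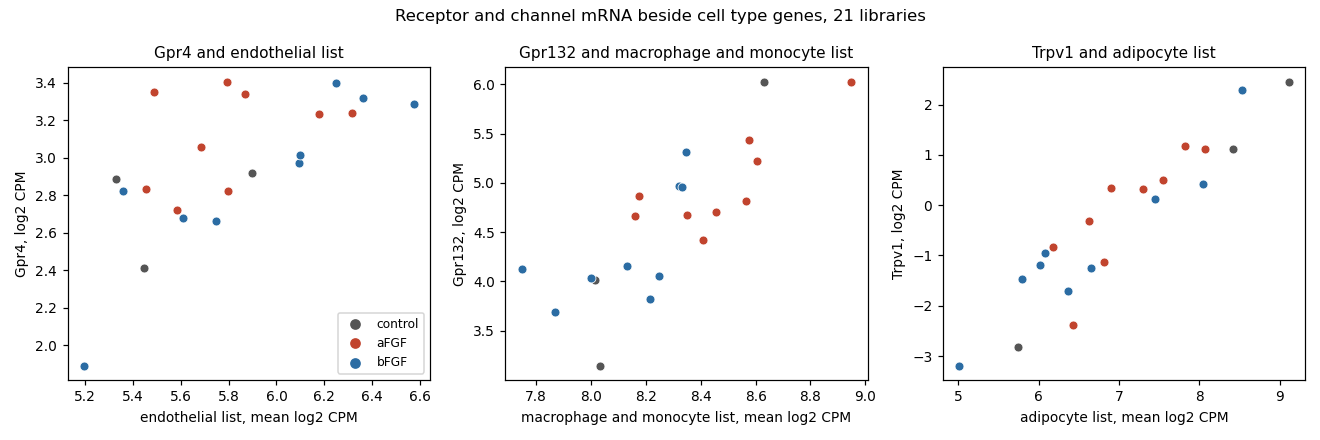
Log2 CPM of Gpr4, Gpr132 and Trpv1 (y axis) against the mean log2 CPM of a cell type list (x axis) in 21 libraries, grey for control, red for aFGF and blue for bFGF. The points slope upward for Gpr4 with the endothelial list (r = 0.66), Gpr132 with the macrophage and monocyte list (r = 0.81) and Trpv1 with an adipocyte list (r = 0.93) that was written after its nearest genes had been seen.

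The genes most alike to each member over the 21 libraries, by Pearson's r of log2 CPM among 15810 others, are given as a description. Nearest to Gpr4 were Ets1 (r = 0.85), Rasip1 (0.85) and Pecam1 (0.82), genes that endothelial cells use, Pecam1 being the CD31 adhesion molecule. Nearest to Gpr65 were Gm6377 (0.90), Nuak2 (0.90) and Atp6ap2 (0.87), the latter a subunit associated with the vacuolar proton pump. Nearest to Gpr132 were Hnrnph2 (0.94), Stat4 (0.94) and Nod2 (0.92), where Stat4 relays interleukin-12 signals and Nod2 senses bacterial wall fragments. Gpr65 and Gpr132 had r = 0.68 with each other, and libraries share depth and tissue composition in all of these values.

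Nearest to Asic1 were Fam161a (0.78), Fam221a (0.74) and Hmgxb4 (0.73), and nearest to Asic3 were Ift122 (0.70), Sclt1 (0.66) and Nup62cl (0.65). Fam161a, Ift122 and Sclt1 encode proteins of cilia and centrioles. With counts as low as those of Asic3, an r of this size is no finding. Trpv1 stood apart from its fellow channels, with Slc36a2 (0.95) and Ghr (0.94), the growth hormone receptor gene, nearest to it.

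The next genes alike to Trpv1 included Pnpla2, Lipe, Plin4, Cidec and Plin1, the lipases and lipid droplet proteins of fat cells. A list of 12 adipocyte genes that holds these 5 was written after they had been seen, so its r of 0.93 with Trpv1 is a description. Within groups the r with Trpv1 was 0.95. For the other 5 members r was between -0.27 and 0.19 over the 21 libraries, and between -0.32 (Gpr132) and 0.51 (Asic1) within groups. Since the list holds genes seen to be nearest to Trpv1, a higher r for Trpv1 was built in. Adipocyte genes summed to 12161 CPM in the control library with the highest Trpv1 (5.43 CPM) and to 1153 CPM in the control library with the lowest (0.0859 CPM). In 7.4/bFGF replicate 3, which held 4.86 CPM of Trpv1, they summed to 9380 CPM. The sum was lowest, at 791.6 CPM, in 6.4/bFGF replicate 2, where Trpv1 was lowest too. The part of fat in the wound margin in the Trpv1 values was not tested.

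Of the sensory neuron list, 8 of 12 genes could be tested, and between the growth factors 5 had estimates above 0 with aFGF and 3 below. With aFGF 3 of the 8 were called higher, where 3.2% of all genes were called in either direction: Tac1 and Calca, which encode neuropeptides, and Nefl, a neurofilament gene, all singled out after their values were seen. Tac1 was at 1.39 ± 1.22 CPM with aFGF and 0.114 ± 0.108 CPM with bFGF, Nefl at 1.55 ± 1.17 and 0.330 ± 0.218 CPM, and Calca at 0.814 ± 0.264 and 0.313 ± 0.271 CPM (SD, n = 9 each). The edgeR adjusted p was 0.00921, 0.0148 and 0.0368 in that order, and Calca lost its call in 14 of 30 alternatives. Without the 3 libraries that stood apart the log2 differences were 3.78, 2.30 and 1.36, where they had been 3.82, 2.25 and 1.51, and Calca was not called (edgeR adjusted p = 0.120). The estimate of Asic1 had the opposite sign in this comparison. The sodium channel genes Scn10a and Scn11a, which failed the filter, had higher means with bFGF (0.0470 and 0.164 CPM) than with aFGF (0.0122 and 0.0328 CPM). The median of Scn10a was 0 CPM in both arms, and that of Scn11a was 0.0559 CPM with bFGF and 0 with aFGF. Single libraries weigh on the bFGF means. Scn10a was highest in 8.4/bFGF replicate 2 (0.284 CPM), one of the 3 that stood apart, and Scn11a in 8.4/bFGF replicate 3 (0.708 CPM). The defining nociceptor genes Scn10a and Mrgprd reached at most 0.284 and 0.0276 CPM in any library.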

How the data were processed

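RNA-seq libraries (TruSeq Stranded mRNA, 21 in 7 groups of 3) were used. The authors deposited, for each library, unnormalized counts by gene and FPKM values; the submitters' processing notes name GRCm39, and the aligner, counter and annotation are not given in the sources used here. Symbols were those of the files, and 18662 (99.2%) matched a RefSeq table of another assembly, used for names and overlaps only. Counts were fitted in R 4.3.3 with edgeR 4.0.16 (TMM, default filter by group, quasi-likelihood test, 1 mean per group over 21 libraries, Benjamini-Hochberg over 15811 genes, log2 CPM with a prior count of 2). A gene was called when its adjusted p was below 0.05 and its log2 change larger than 0.58 either way. No member failed the filter, so the exact test planned for that case was not needed.

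Alternatives were DESeq2 1.42.0, limma 3.58.1 on log2(FPKM + 1) and log2(FPKM + 0.1), RLE, filters, robust dispersion, fits of the libraries compared, a replicate block and leaving out libraries. The exact permutation tests of members (30, two-sided, unadjusted) and the adipocyte list were chosen once values were known. Scripts were first tested on simulated data.

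The members and lists were chosen with earlier results of these data known. Named from the lists were called genes and at most 3 with the smallest p per comparison; of similar genes, the 3 with the highest r. Some genes that these rules name are not reported here. Libraries of the same group differed beyond counting noise. Library totals were 34362558 to 37817833, and limits at 0 counts cover counting error only.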

Additional observations from a re-analysis of the deposited data

Results flagged for a closer look

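Dixon's rule was applied to the log2 CPM of the 6 genes in the arms of 6 libraries per pH and 9 per growth factor, 30 arms in all. It marked 2, and chance marks about 1 in 20. In 7.4/bFGF replicate 2, Gpr4 was at 3.66 CPM where the other 8 bFGF libraries ran from 6.28 to 10.5 CPM, a gap of 0.511 of the whole range. In 8.4/bFGF replicate 2, Gpr65 was at 10.1 CPM where the other 8 bFGF libraries ran from 17.0 to 25.2 CPM, a gap of 0.567 of the range. The latter is one of the 3 libraries that stood apart. No member's interaction of pH and growth factor passed the test.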

How the results depend on the processing

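None of the 6 genes was called in any comparison under any alternative. With limma on log2(FPKM + 1), Asic1 (at most 0.254 FPKM) and Asic3 (at most 0.235 FPKM) could not reach the fold threshold, so that setting could not call them. Of 1303 alternative log2 fold changes of the 6 genes, 1237 kept their sign and 66 turned it, in 19 of 42 gene and comparison pairs. Other than by leaving out 1 library, these were Asic1 against control (0.053 with the replicate block, 0.0002 and 0.0020 with limma at FPKM + 1 and + 0.1, 0.020 by the exact test) and Gpr132 against control (0.19, 0.25 and 0.27 with limma at + 1, at + 0.1 and by the exact test). Without the 3 libraries that stood apart, Asic3 turned to 0.27 for aFGF against bFGF, Gpr132 to -0.022 for pH 6.4 against 7.4, and Gpr65 to 0.042 against control, -0.068 for pH 6.4 against 7.4 and -0.15 for pH 6.4 against 8.4. Gpr65 for pH 8.4 against 7.4 was -0.037 and -0.047 with limma and -0.062 by the exact test. For pH 6.4 against 8.4, limma at + 1 gave -0.0026 for Asic3, and limma at + 1 and + 0.1 gave 0.042 and 0.038 for Trpv1. With 1 library left out, ranges that crossed 0 were, for Asic1, -0.23 to 1.69 (6.4/aFGF against 7.4/aFGF), -0.49 to 0.48 (control), -1.03 to 0.30 (interaction) and -0.22 to 0.45 (pH 6.4 against 8.4). For Asic3 they were -0.66 to 0.18 (growth factor), -0.43 to 0.62 (pH 6.4 against 8.4) and -0.035 to 1.36 (pH 8.4 against 7.4). For Gpr132 they were -0.51 to 0.34 (6.4/aFGF against 7.4/aFGF), -0.61 to 1.10 (control) and -0.078 to 0.39 (pH 6.4 against 7.4), and for Gpr4 -0.15 to 0.016 (pH 6.4 against 8.4). For Gpr65 they were -0.39 to 0.22 (6.4/aFGF against 7.4/aFGF), -0.18 to 0.22 (control), -0.091 to 0.21 (pH 6.4 against 7.4), -0.14 to 0.26 (pH 6.4 against 8.4) and -0.22 to 0.19 (pH 8.4 against 7.4). For Trpv1 they were -1.30 to 0.12, -0.47 to 0.37 and -1.43 to 0.36 (pH 6.4 against 7.4, 6.4 against 8.4 and 8.4 against 7.4). The causes were not tested.

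Over all genes, the calls by DESeq2 were 170 against control (1 with edgeR), 773 for the growth factor (506), 4, 2 and 1 for pH 6.4 against 7.4, 8.4 against 7.4 and 6.4 against 8.4, 7 for the interaction, 19 for 6.4/aFGF against 7.4/aFGF (0 each) and 2050 for any difference (18). Growth factor calls were 209 with limma at FPKM + 1 and 1702 with no fold threshold. Against control, calls were 5 with at least 10 counts in every library, 2 with no fold threshold and 0 without the 3 libraries that stood apart, where any difference gave 3. With 1 library left out, calls were 0 to 1189 against control (0 without control replicate 1 or 3, 1189 without control replicate 2), 269 to 714 for the growth factor (without 6.4/bFGF replicate 1 and 7.4/aFGF replicate 3) and 7 to 864 for any difference (864 without control replicate 2), and in the other comparisons 0. Same-numbered libraries did not deviate together (63 pairs, median correlation 0.01, 5 of 21 libraries closest to their own number), and with the replicate number as a block calls were 2 against control and 10 for any difference. At least 10 counts in every library removed Asic1, Asic3 and Trpv1. Over the 21 libraries, CPM had a coefficient of variation of 92.4% for Asic3, 56.6% for Asic1, 115.4% for Trpv1 and 54.9% for Gpr132, and Asic3 held at most 17 counts.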
